A study of Mus musculus with 23 samples.

Results

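Serum response factor (Srf), its 5 cofactor genes and 4 genes of the actin cytoskeleton were followed in the colonic epithelium of mice on low-fat and high-fat diets. The 10 genes are Srf, Elk1, Elk3, Elk4, Mkl1, Mkl2, Acta1, Actb, Actg1 and Vcl, taken by gene symbol from the 24917 gene loci of the count table. The rule that picks them uses gene symbols and no measured value, the list was drawn up with earlier results of these data known, and each gene was found at 1 locus. Male C57BL/6 mice (C57BL/6J by the study's methods) were put on diets at 6 weeks of age and kept on them for 43 weeks. The LF group ate a diet with 10% fat throughout, and the HF group ate a diet with 60% fat throughout. The HF-LF group ate the diet with 60% fat during the first 15 weeks and was moved to the diet with 10% fat for the remaining 28 weeks. Lard was the source of fat. RNA-seq libraries depleted of ribosomal RNA came in 2 batches. Batch 1 held 4 LF, 3 HF and 4 HF-LF samples, and batch 2 held 4 LF, 3 HF and 5 HF-LF samples. The study describes 5 mice per diet, which is fewer than the samples of any diet over both batches, so that some samples can come from the same mouse and diets were compared within each batch first. The comparison of HF with LF addresses what a long high-fat diet does to expression in this tissue, and the comparisons with HF-LF address what remains after the diet is changed back.

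SRF is a transcription factor that binds a short DNA element called the CArG box and works with a pair of cofactor families. The ternary complex factors (TCFs), Elk1, Elk3 and Elk4, are switched by phosphorylation through the ERK kinase cascade and are known for driving immediate early genes such as Fos. The myocardin-related factors, Mkl1 and Mkl2 (also named Mrtfa and Mrtfb), are held back by unpolymerised actin and are known for driving genes of the actin cytoskeleton. Acta1 encodes the alpha-actin of skeletal muscle fibres, Actb and Actg1 encode the cytoplasmic beta- and gamma-actins of nearly all cells, and Vcl encodes vinculin, which links actin to adhesion sites.

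In mm10 coordinates, Srf lies on chr17:46546839-46556162 (minus strand), Elk1 on chrX:20933395-20950608 (minus), Elk3 on chr10:93247416-93311159 (minus) and Elk4 on chr1:132007605-132025684 (plus). Mkl1 lies on chr15:81012281-81190757 (minus) and Mkl2 on chr16:13256481-13417529 (plus). Acta1 lies on chr8:123891758-123894775 (minus), Actb on chr5:142903116-142906724 (minus), Actg1 on chr11:120345690-120348484 (minus) and Vcl on chr14:20929433-21033673 (plus). Reads that fall where genes overlap can be lost or shared, and whether the counting used strand is not given in the sources used here. The Elk1 locus overlaps Uxt on the same strand, and Elk3, Mkl1 and Vcl overlap Cdk17, Sgsm3 and Ap3m1 on the opposite strand. The microRNA genes Mir6976 and Mir6935, also in the count table, lie within Srf and Actg1 on the same strand. Elk4 and Acta1 overlap the protein-coding genes Mfsd4a and Gm20388 on the opposite strand, neither found in the count table by that symbol. The actin genes have long stretches of near-identical coding sequence, so that their counts also depend on how reads matching several genes were handled, which is likewise not given.

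The promoters of the genes were searched for exact matches to the element SRF binds, and 4 are printed because a CArG box was found there. The 250 bases before the RefSeq start sites (assembly GRCm38.p6, which matches mm10) were searched in 9 of the 10 genes, all but Actb, for which no window was available. The CArG box reads the same on both strands, and its matches are in capitals below. They lie 82 to 73 and 62 to 53 bases before the start of Srf, 73 to 64 before Acta1, 90 to 81 before Actg1 and 227 to 218 before Vcl.
Srf, chr17:46556163-46556412, minus strand: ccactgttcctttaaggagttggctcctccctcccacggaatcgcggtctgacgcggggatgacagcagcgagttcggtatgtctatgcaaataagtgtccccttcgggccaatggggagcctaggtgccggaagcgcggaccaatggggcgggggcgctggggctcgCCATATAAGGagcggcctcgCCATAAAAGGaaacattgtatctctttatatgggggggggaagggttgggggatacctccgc
Acta1, chr8:123894776-123895025, minus strand: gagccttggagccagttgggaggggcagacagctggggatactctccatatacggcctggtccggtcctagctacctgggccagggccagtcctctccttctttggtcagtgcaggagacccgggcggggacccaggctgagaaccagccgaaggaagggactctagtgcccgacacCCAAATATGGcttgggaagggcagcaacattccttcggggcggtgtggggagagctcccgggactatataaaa
Actg1, chr11:120348496-120348745, minus strand: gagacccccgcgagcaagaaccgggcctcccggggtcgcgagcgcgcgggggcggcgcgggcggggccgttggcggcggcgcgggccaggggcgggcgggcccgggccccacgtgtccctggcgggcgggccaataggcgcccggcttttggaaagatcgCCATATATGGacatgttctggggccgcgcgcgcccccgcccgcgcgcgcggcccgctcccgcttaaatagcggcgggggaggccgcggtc
Vcl, chr14:20929148-20929397, plus strand: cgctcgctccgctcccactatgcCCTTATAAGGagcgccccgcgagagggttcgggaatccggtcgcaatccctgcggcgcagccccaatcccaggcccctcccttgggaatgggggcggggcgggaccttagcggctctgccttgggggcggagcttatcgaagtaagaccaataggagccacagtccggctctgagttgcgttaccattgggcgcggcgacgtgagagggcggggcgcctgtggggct
Over all 32851 promoter windows of this length, 1.47% held a CArG box and 0.0183% held at least 2, as the window of Srf did. The ETS core CCGGAAG, the kind of site TCFs bind beside SRF, was searched on both strands and stood once in the windows of Srf and Elk4, against 6.91% of all windows. By their letters these motifs cannot overlap. The windows of Elk1, Elk3, Elk4, Mkl1 and Mkl2 held no CArG box. This does not show that these genes lack an element SRF binds, since only exact matches within 250 bases were sought. Among 9 known targets of SRF through the TCFs that had a window, 2 held a box. A match is a description of the letters, and these windows bear on the results only in that Srf and Acta1, which changed with diet, and Actg1 and Vcl, which did not pass the test, all carried a box.

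Expression is given as CPM, the count of a gene scaled to a common library size, with the effective library sizes of its batch. Total counts ran from 29189922 to 46498521 per sample in batch 1 and from 31607019 to 65320947 in batch 2. Each of the 10 genes passed the filter on low counts, with between 38 and 99 reads per sample for Elk3 at the low end and between 104472 and 280764 for Actb at the high end. Between genes, levels were compared per kilobase of the longest coding transcript. In the LF samples of batch 1, Actb stood at 1995 ± 129 CPM per kilobase (SD, n = 4) and Actg1 at 500.5 ± 69.8, both far above the rest. Srf stood at 25.1 ± 2.25, Vcl at 24.8 ± 2.58 and Acta1 at 18.1 ± 4.11 CPM per kilobase. The cofactors followed, with Elk4 at 14.5 ± 0.866, Mkl2 at 13.9 ± 2.06, Mkl1 at 11.2 ± 1.80, Elk1 at 1.63 ± 0.138 and Elk3 at 0.342 ± 0.062. In this order, neighbours whose means differed by less than their spread (mean ± SD overlapping) were Srf and Vcl, Acta1 and Elk4, Elk4 and Mkl2, and Mkl2 and Mkl1. The epithelial identity of the samples was plain in their markers: Epcam averaged 1816 CPM and Krt8 5734 CPM, and each of the 12 epithelial markers was detected in every sample.

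In both batches every HF sample lay below every LF sample for Srf and Acta1, and the mean of HF-LF lay between those of HF and LF. A gene was called changed where edgeR's quasi-likelihood test gave a Benjamini-Hochberg adjusted p under 0.05 over all genes tested and the fold change exceeded 1.2. In batch 1, no gene of 14428 was called between HF and LF (background 0%), and Acta1 had the lowest adjusted p of all genes. In batch 2, Srf and Acta1 were called lower, 2 of the 10 genes, where 7.44% of 14377 genes were called and 4.4% were called lower. Actb, Actg1, Vcl, Elk3 and Mkl2 passed the test in no comparison of the main edgeR fits. Mkl2 did pass between HF-LF and HF of batch 2 in 3 of 14 other fits (another tool or setting, or a sample left out).

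**Figure D1:**
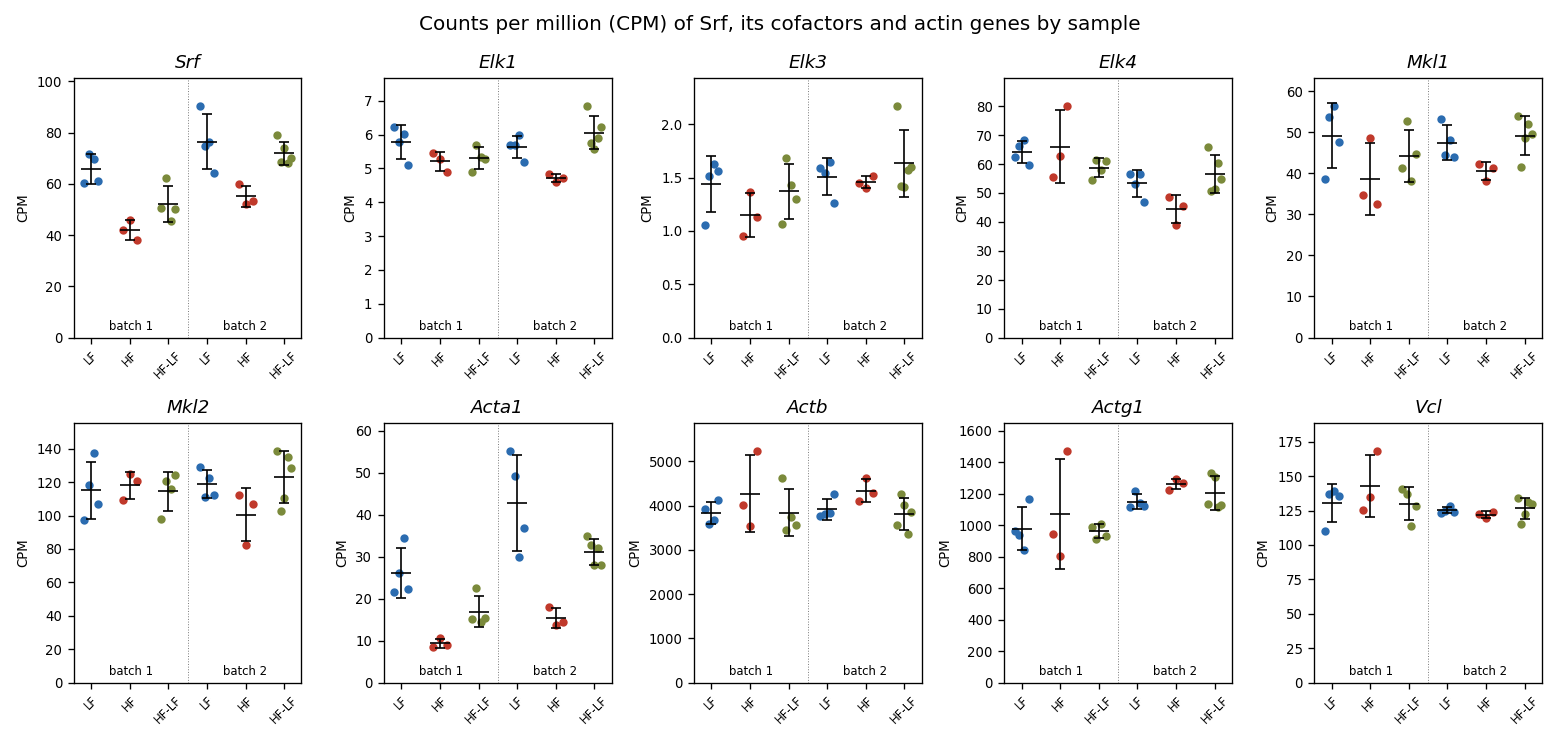
CPM (vertical axes, each from 0) of the 10 genes in every sample, by diet and batch. Points are samples, and bars give the mean ± SD of 3 to 5 samples. For Acta1 the HF samples (8.54 to 10.6 CPM in batch 1, 13.7 to 18.1 in batch 2) lie below every LF and HF-LF sample of their batch, while Actb, Actg1 and Vcl overlap between diets in nearly every panel.

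Acta1 showed the widest difference among the 10 genes. In batch 1 it stood at 21.7, 26.0, 34.55 and 22.2 CPM in LF, at 8.54, 10.6 and 8.99 in HF, and at 15.2, 22.4, 14.3 and 15.4 in HF-LF. In batch 2 it stood at 55.1, 49.1, 29.9 and 36.8 CPM in LF, at 18.1, 13.7 and 14.4 in HF, and at 35.02, 32.8, 27.9, 32.15 and 28.0 in HF-LF. In both batches the HF samples were below all others, and the LF and HF-LF samples overlapped. The HF to LF difference was -1.48 on the log2 scale in batch 1 (SE 0.195, 95% interval -1.90 to -1.06, adjusted p = 0.0546 by edgeR), a level 0.359 times that of LF. It was -1.47 in batch 2 (SE 0.176, 95% interval -1.85 to -1.10, adjusted p = 0.00169), a level 0.36 times that of LF. Acta1 ranked first of 14428 genes by p in batch 1 and position 4 of 14377 in batch 2. The difference between the batches in this effect was 0.003 on the log2 scale (95% interval -0.531 to 0.537). In batch 2, Acta1 stayed called without any one sample and under every other setting tried.

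Srf followed the same order of diets with a smaller difference. In batch 1 it stood at 60.2, 71.7, 69.7 and 61.0 CPM in LF, at 41.9, 46.1 and 38.15 in HF, and at 50.4, 62.4, 45.6 and 50.1 in HF-LF. In batch 2 it stood at 90.4, 74.9, 76.2 and 64.4 CPM in LF, at 59.9, 52.0 and 53.5 in HF, and at 78.9, 68.7, 74.0, 68.1 and 70.0 in HF-LF. Every HF sample was below every LF sample of its batch. In batch 1 the HF to LF difference was -0.64 (SE 0.116, adjusted p = 0.137), a level 0.64 times that of LF that did not pass the test and ranked position 7 of all genes by p. In batch 2 it was -0.47 (SE 0.095, adjusted p = 0.0242), a level 0.721 times that of LF. The call in batch 2 was lost when LF sample 1 (adjusted p = 0.0646), LF sample 3 (0.0734), HF sample 2 (0.139) or HF sample 3 (0.0784) was left out, with differences between -0.38 and -0.47. Only Srf and Acta1 had HF samples entirely below LF samples in batch 1, 2 of 10 genes against a background of 7.33%, and in batch 2 this held for Srf, Elk1, Mkl1 and Acta1, 4 of 10 against 13.5%. At an unadjusted p under 0.05, the same 2 genes were lower in batch 1, where 10.2% of all genes were lower by that rule.

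Among the TCF genes, none was called between HF and LF in either batch by the main edgeR fit. In batch 2, Elk1 passed in 1 and Elk4 in 2 of 13 other fits (another tool or setting, or a sample left out). Elk1 stood at 6.24, 5.77, 6.02 and 5.11 CPM in LF, at 5.46, 5.29 and 4.89 in HF, and at 4.91, 5.69, 5.35 and 5.28 in HF-LF of batch 1. In batch 2 it stood at 5.69, 5.69, 5.98 and 5.20 in LF, at 4.83, 4.604 and 4.71 in HF, and at 6.84, 5.76, 5.58, 5.91 and 6.22 in HF-LF. The HF samples of Elk1 overlapped the others in batch 1 and lay below all of them in batch 2, with HF to LF differences of -0.15 (SE 0.131, adjusted p = 0.491) and -0.26 (SE 0.10, adjusted p = 0.0964). Elk4, the most abundant TCF gene per kilobase, stood at 62.5, 66.4, 68.2 and 59.7 CPM in LF, at 55.4, 62.7 and 80.0 in HF, and at 54.4, 61.5, 57.9 and 61.0 in HF-LF of batch 1. In batch 2 it stood at 56.7, 53.2, 56.7 and 46.7 in LF, at 48.7, 39.1 and 45.4 in HF, and at 66.0, 50.7, 51.3, 60.4 and 54.9 in HF-LF. The HF to LF differences of Elk4 were 0.04 (SE 0.113) in batch 1 and -0.26 (SE 0.101, adjusted p = 0.0946) in batch 2, and the 2 batches differed by -0.31 in this effect (95% interval -0.628 to 0.013, unadjusted p = 0.0593 by edgeR, adjusted p = 0.763).

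Elk3 was the scarcest of the 10 genes. It stood between 1.05 and 1.63 CPM in the LF samples of batch 1 and between 1.26 and 1.64 in those of batch 2. Its HF samples ran from 0.949 to 1.37 CPM in batch 1 and from 1.41 to 1.51 in batch 2, and its HF-LF samples from 1.07 to 1.69 and from 1.41 to 2.17. Its diets overlapped in both batches, with HF to LF differences of -0.33 (SE 0.246, adjusted p = 0.416) and -0.04 (SE 0.18, adjusted p = 0.883).

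Of the actin-regulated cofactors, Mkl1 was called lower in HF by edgeR with both batches in one fit and in neither batch alone, while limma voom called it in batch 1 (-0.44, adjusted p = 0.0395), as did edgeR without HF sample 2 (-0.55, adjusted p = 0.0499). In batch 1, Mkl1 stood at 38.6, 53.8, 56.3 and 47.7 CPM in LF, at 34.7, 48.6 and 32.5 in HF, and at 41.3, 52.8, 38.0 and 44.6 in HF-LF. The batch 2 samples gave 53.2, 44.4, 48.2 and 44.0 in LF, 42.3, 38.0 and 41.3 in HF, and 53.9, 41.6, 48.6, 52.1 and 49.5 in HF-LF. Its HF and LF samples overlapped in batch 1 and were separate in batch 2, with differences of -0.35 (SE 0.164, adjusted p = 0.229) and -0.23 (SE 0.088, adjusted p = 0.0961). Mkl2 stood at 97.6, 118.4, 137.3 and 107.1 CPM in LF, at 109.1, 124.7 and 120.5 in HF, and at 98.0, 120.9, 115.7 and 124.3 in HF-LF of batch 1. The levels in batch 2 were 129.4, 111.3, 122.4 and 112.4 in LF, 112.3, 82.4 and 106.7 in HF, and 138.6, 103.0, 110.7, 135.0 and 128.3 in HF-LF. Its diets overlapped in both batches, with HF to LF differences of 0.04 (SE 0.119) and -0.24 (SE 0.115, adjusted p = 0.156).

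The cytoplasmic actins and vinculin did not follow Acta1. Actb stood at 3932, 3591, 3667 and 4132 CPM in LF, at 4024, 3540 and 5233 in HF, and at 4622, 3456, 3743 and 3559 in HF-LF of batch 1. The batch 2 samples gave 3764, 3807, 3835 and 4260 in LF, 4103, 4621 and 4293 in HF, and 3568, 4258, 4019, 3361 and 3858 in HF-LF. The HF to LF difference of Actb was 0.16 (SE 0.153, 95% interval -0.174 to 0.485) in batch 1 and 0.15 (SE 0.09, 95% interval -0.044 to 0.34) in batch 2, with overlapping samples. Actg1 stood at 963.5, 938.4, 840.3 and 1165 CPM in LF, at 940.8, 807.0 and 1470.0 in HF, and at 989.5, 914.3, 1006 and 930.0 in HF-LF of batch 1. The levels in batch 2 were 1114, 1219, 1139 and 1121 in LF, 1225, 1290.0 and 1270.0 in HF, and 1133, 1330.0, 1307, 1113 and 1131 in HF-LF. Its HF samples lay above all LF samples in batch 2, where the difference was 0.14 (SE 0.078, 95% interval -0.032 to 0.303, adjusted p = 0.235). Vcl stood at 110.3, 137.0, 139.4 and 135.4 CPM in LF, at 125.5, 134.8 and 168.2 in HF, and at 141.0, 137.0, 113.7 and 128.0 in HF-LF of batch 1. The batch 2 samples gave 123.6, 124.6, 128.3 and 123.8 in LF, 122.8, 119.4 and 123.9 in HF, and 134.5, 115.1, 122.5, 131.6 and 129.6 in HF-LF. The HF to LF difference of Vcl was -0.04 in batch 2 (95% interval -0.159 to 0.089) and 0.13 in batch 1 (95% interval -0.13 to 0.39).

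The contrast within the actin genes held when reads were set against each other inside a sample, where library scaling cancels. Acta1 took 0.441%, 0.571%, 0.7605% and 0.417% of the counts on 6 actin genes (Acta1, Actb, Actg1, Acta2, Actg2 and Actc1) in LF of batch 1, 0.172%, 0.243% and 0.134% in HF, and 0.271%, 0.5095%, 0.301% and 0.342% in HF-LF. The shares in batch 2 were 1.117%, 0.968%, 0.596% and 0.678% in LF, 0.338%, 0.23% and 0.258% in HF, and 0.739%, 0.583%, 0.522%, 0.713% and 0.558% in HF-LF. The HF samples were below all others in each batch. A two-sided exact permutation test of HF against LF gave p = 0.0286 in batch 1, the smallest it can give for 3 against 4 samples, and p = 0.0571 in batch 2, both with an adjusted p of 0.272 over the 54 such tests of summed values. The 6 genes together took 0.486% ± 0.0364 of all counts (SD, n = 4) in LF and 0.529% ± 0.0994 (n = 3) in HF of batch 1, and 0.515% ± 0.0149 (n = 4) and 0.556% ± 0.018 (n = 3) in batch 2, with exact permutation p = 0.514 and 0.0857.

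**Figure D2:**
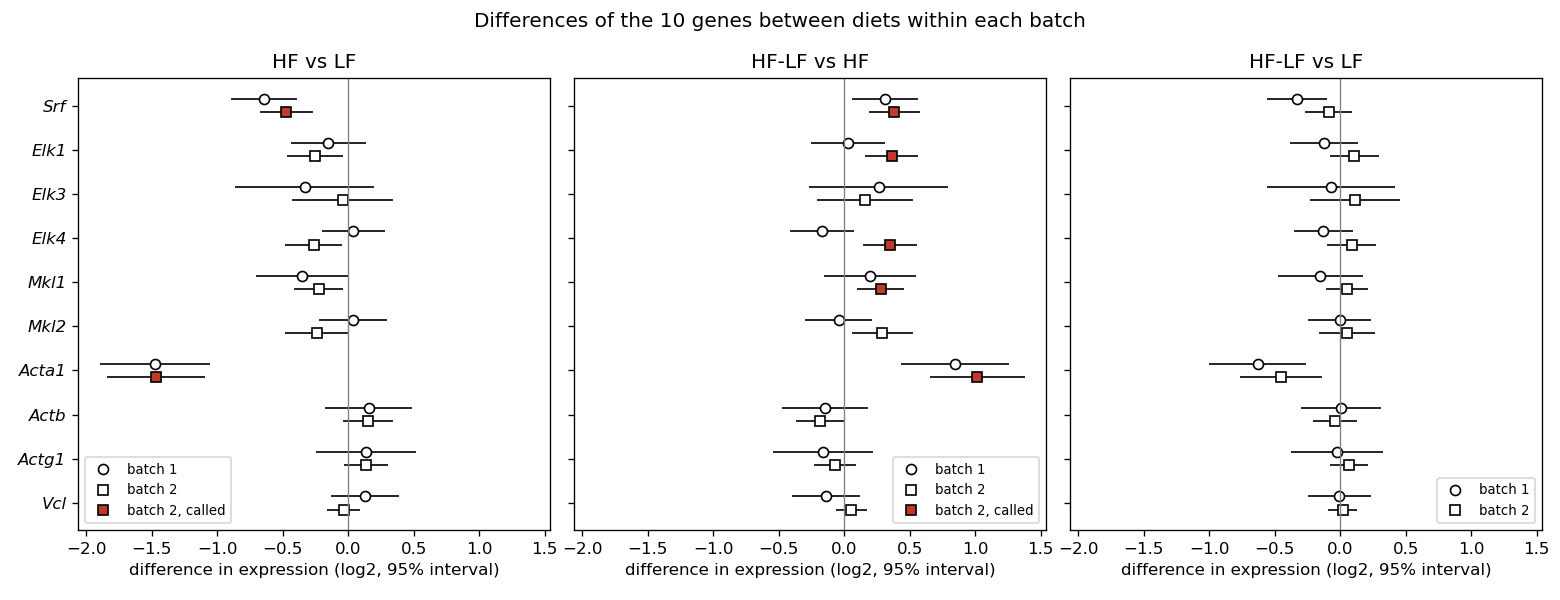
Differences on the log2 scale (horizontal axes) of the 10 genes in 3 comparisons of diets, with 95% intervals from edgeR. Circles are batch 1 and squares batch 2, and red marks a called gene. Acta1 lies at -1.48 and -1.47 between HF and LF and at 0.85 and 1.02 between HF-LF and HF, and every interval of Actg1, Vcl and Elk3 holds 0.

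After the change to the low-fat diet, Srf, Acta1, Elk1, Elk4 and Mkl1 were higher than in HF in batch 2. These 5 of 10 genes were called between HF-LF and HF there, all higher, where 14.5% of all genes were called and 8.89% were called higher. The differences were 1.02 for Acta1 (SE 0.169, adjusted p = 0.01), a level 2.02 times that of HF, and 0.38 for Srf (SE 0.091, adjusted p = 0.0187), 1.30 times that of HF. They were 0.36 for Elk1 (SE 0.096, adjusted p = 0.0247), 0.35 for Elk4 (SE 0.097, adjusted p = 0.0279) and 0.28 for Mkl1 (SE 0.084, adjusted p = 0.036). HF-LF samples lay above all HF samples for Acta1, Srf, Elk1 and Elk4, 4 of 10 genes against a background of 14.6%. In batch 1, 1 gene of 14428 was called between HF-LF and HF (0.00693%) and none of the 10, by edgeR. Acta1 was there 0.85 higher (SE 0.192, adjusted p = 0.412, unadjusted p = 0.000677) and the only one of the 10 with separate samples (background 3.95%), and Srf was 0.31 higher (SE 0.115, adjusted p = 0.412). DESeq2 called 1 of the 10, Acta1 (adjusted p = 0.0276), in that comparison.

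The 5 calls of batch 2 rested on few samples. Without HF sample 2 none of the 10 was called, and Acta1 then stood 0.93 higher (adjusted p = 0.0765), while the genes called in the whole table fell from 2084 to 11. HF sample 2 was the lowest HF sample of batch 2 for 8 of the 10 genes and the highest for Actb and Actg1. Without HF sample 3, Acta1 alone was called. Without HF-LF sample 1, which was the highest HF-LF sample for 8 of the 10 genes, Srf and Acta1 were called, and without HF-LF sample 4 Srf, Elk1 and Acta1 were called. Mkl1 was in addition lost without HF-LF sample 3 or 5 or HF sample 1.

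By edgeR, none of the 10 genes was called between HF-LF and LF. No gene of 14428 was called between them in batch 1 (0%) and 1 of 14377 in batch 2 (0.00696%), by edgeR, with 360 higher and 403 lower at an unadjusted p under 0.05 in batch 1 and 309 and 360 in batch 2. DESeq2 called 4 and 15 genes and limma voom 0 and 0. Acta1 stood between the other diets, with HF-LF to LF differences of -0.63 in batch 1 (SE 0.172, 95% interval -1.003 to -0.26, adjusted p = 0.792) and -0.46 in batch 2 (SE 0.147, 95% interval -0.767 to -0.142, adjusted p = 0.958). Srf differed by -0.33 in batch 1 (95% interval -0.562 to -0.104, adjusted p = 0.792) and by -0.09 in batch 2 (95% interval -0.265 to 0.089). The intervals of Acta1 lay below 0 in both batches, although neither passed the test over all genes. These 3 comparisons share their samples, so that a low HF group enters both the HF to LF and the HF-LF to HF differences.

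With both batches in one fit and batch as a covariate, 3 of the 10 genes were called lower in HF than in LF, where 18.1% of 14385 genes were called and 9.11% were called lower. Acta1 differed by -1.48 (SE 0.135, adjusted p = 1.09e-06) and ranked first of all genes, Srf by -0.56 (SE 0.077, adjusted p = 0.000461) and Mkl1 by -0.29 (SE 0.094, adjusted p = 0.028). Mkl1 was lost without any one of 6 samples, with adjusted p between 0.0598 and 0.0927, whereas Srf and Acta1 stayed called without any one sample. Between HF-LF and HF, Acta1 (0.95, SE 0.131, adjusted p = 0.000801) and Srf (0.36, SE 0.076, adjusted p = 0.0104) were called higher, 2 of 10 genes against 10.3% called and 5.44% called higher. Between HF-LF and LF, none of 14385 genes was called by edgeR (0%), with 276 higher and 315 lower at an unadjusted p under 0.05, and Acta1 differed by -0.53 (SE 0.115, unadjusted p = 0.000115, adjusted p = 0.305). DESeq2 called 6 genes there, Acta1 among them (-0.53, adjusted p = 0.0392). Same-numbered samples can come from the same mouse in this fit, so its errors can be too small. No gene passed a test of a difference between batches in the HF to LF effect by edgeR or DESeq2, with 943 of 14385 genes at an unadjusted p under 0.05 by edgeR and none of the 10 among them.

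Of 12 genes known as targets of SRF through the TCFs, edgeR called 8 lower in HF in batch 2, 10 with both batches and 0 in batch 1, and of 18 tested targets through Mkl1 and Mkl2 it called 3, 3 and 0, 1 of them higher with both batches. The difference between the lists was not tested. The TCF list held 12 genes, mostly immediate early genes of the Fos, Egr and Nr4a families with Junb, Ier2, Ier3, Mcl1 and Btg2, and Srf itself. The lists were chosen with earlier results of these data known, and the study had reported immediate early genes as lower in aged obese mice. The counts below are therefore not independent of that report. In batch 2, 8 of the 12 were called lower in HF than in LF (background 4.4%), 0 were called higher, and the median difference was -0.54, against -0.01 over all genes tested. In batch 1, 0 of 12 were called by edgeR and 10 were called lower by DESeq2 and by limma voom. Over all genes limma voom called far more than DESeq2 there, as the last section gives, so these equal counts stand against unlike backgrounds. All 12 had HF samples below all LF samples in batch 1 (background 7.33%), and the median was -0.76. With both batches, 10 of 12 were called lower (background 9.11%) with a median of -0.66, and Ier3 and Mcl1, named here after their values were seen, were the exceptions at -0.05 and -0.13. The 10 calls in the fit of both batches stood without any one sample, whereas the 8 of batch 2 fell to 0 without HF sample 2, to 1 without HF sample 3 or LF sample 1, to 2 without LF sample 3 and to 3 without LF sample 2. In batch 1 the count was 10 without HF sample 2 and 0 without any other one sample.

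Junb, a partner of Fos in the AP-1 factor, showed the pattern by sample. It stood at 451, 477, 365 and 393 CPM in LF, at 246, 295 and 203 in HF and at 303, 409, 371 and 278 in HF-LF of batch 1. The batch 2 samples gave 568, 653, 506 and 505 in LF, 451, 386 and 317 in HF and 514, 533, 542, 538 and 449 in HF-LF. Its HF samples were below all LF samples in both batches, with differences of -0.77 (SE 0.16, adjusted p = 0.137) and -0.54 (SE 0.118, adjusted p = 0.028). Ier2, an immediate early gene, differed by -0.78 (SE 0.183) and -0.57 (SE 0.106, adjusted p = 0.0186) and Fosb, a Fos family member, by -1.32 (SE 0.31) and -0.90 (SE 0.134, adjusted p = 0.00856). Between HF-LF and HF, 9 of the 12 were called higher in batch 2 (background 8.89%), 0 in batch 1 (by edgeR, DESeq2 and limma voom alike, with 6 higher at an unadjusted p under 0.05 by edgeR against 4.81% of all genes) and 9 with both batches (background 5.44%), with medians of 0.45, 0.41 and 0.43. The 9 of batch 2 became 1 without HF sample 2 or HF sample 3 and 6 without HF-LF sample 4. Against LF, none of the 12 was called in HF-LF of either batch by edgeR. The median HF-LF to LF difference was -0.37 in batch 1 and 0.025 in batch 2. At an unadjusted p under 0.05, 6 of the 12 were lower in batch 1, where 403 of 14428 genes were. In batch 2, 0 were lower by that rule, where 360 of 14377 genes were.

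The list of 20 genes known as Mkl targets included Vcl, Actb and Actg1 of the genes followed above, but not Acta1. Of the 20, 18 were tested and 3 were called lower in HF than in LF in batch 2 (background 4.4%), none higher, with a median of 0.05. The 3 were Cyr61, which encodes a matricellular protein, Zyx, which encodes the adhesion protein zyxin, and the integrin gene Itga5, the last named after its values were seen. Cyr61 stood at 32.1, 37.6, 37.8 and 29.2 CPM in LF and at 16.6, 16.3 and 9.69 in HF of batch 1, and at 126, 90.9, 60.3 and 63.2 in LF and 55.0, 23.7 and 19.7 in HF of batch 2. Its HF samples were below all LF samples in both batches, with differences of -1.27 (SE 0.28, adjusted p = 0.137) and -1.38 (SE 0.341, adjusted p = 0.0363). Zyx differed by -0.63 (SE 0.117, adjusted p = 0.137) and -0.51 (SE 0.147, adjusted p = 0.0466). With both batches, Cyr61 and Zyx were called lower (background 9.11%) and Tpm4, a tropomyosin gene, was called higher (0.36, SE 0.082, adjusted p = 0.00612, background 9%), while Myh9, the heavy chain of non-muscle myosin, differed by -0.26 (adjusted p = 0.00879) and did not pass the fold threshold. Without any one sample, the 3 calls of batch 2 ranged from 0 to 5. Between HF-LF and HF, 3 of the 18 were called higher in batch 2 (background 8.89%), Cyr61 (0.99, adjusted p = 0.0475) and Zyx (0.50, adjusted p = 0.0284) among them. That count ranged from 0 to 3 without any one sample.

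**Figure D3:**
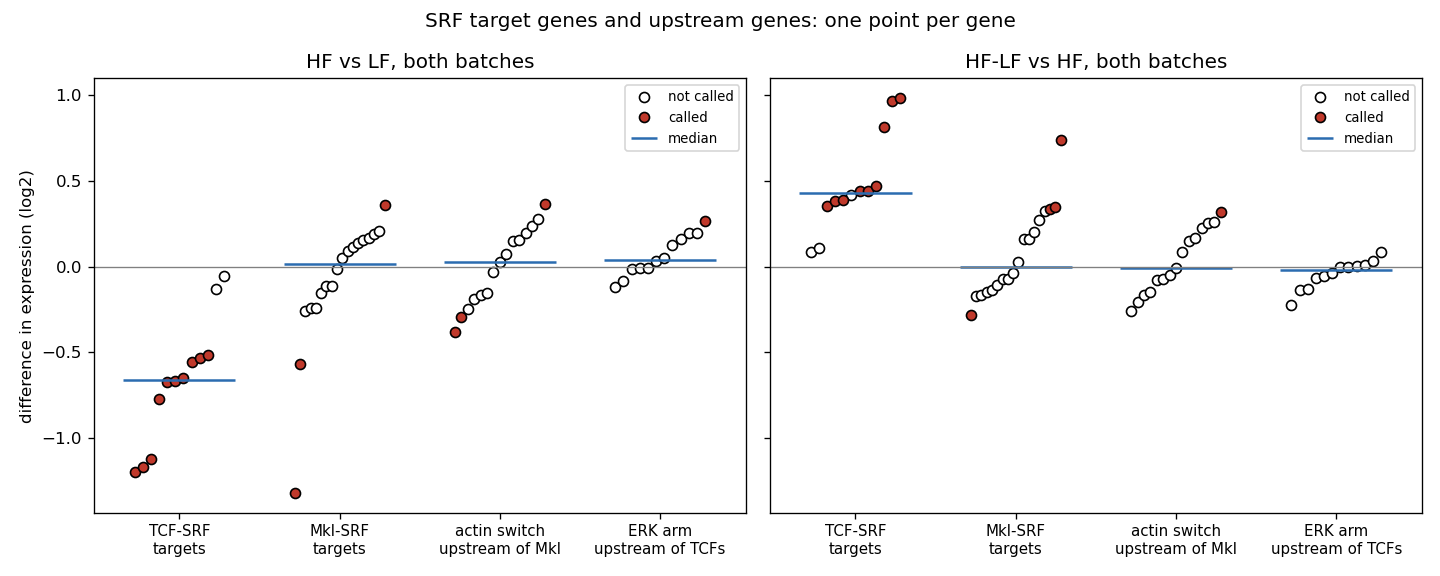
Differences on the log2 scale (vertical axis) of every tested gene of 4 lists with both batches in one fit, for HF against LF and for HF-LF against HF. Each point is a gene, red where called, and the line is the median. For the targets of SRF through the TCFs the medians are -0.66 and 0.43, and for the other lists they lie between -0.02 and 0.04.

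Of 16 genes listed as acting on actin polymerisation or on Mkl1 and Mkl2, 15 were tested, and with both batches 1 was called higher (background 9%) and 2 lower (background 9.11%) in HF than in LF, with a median of 0.03. The lower genes were Rhob, a small GTPase gene (-0.38, SE 0.088, adjusted p = 0.00669), and Limk2, a kinase of cofilin (-0.29, SE 0.072, adjusted p = 0.00815). Rhoa, another small GTPase gene (0.24, adjusted p = 0.0203), and Mical2, which encodes an actin oxidising enzyme (-0.25, adjusted p = 0.0208), did not pass the fold threshold. Within batches, Limk2 alone was called in batch 2 (-0.28, adjusted p = 0.0415) and none in batch 1. Between HF-LF and HF in batch 2, 4 of the 15 were called higher (background 8.89%), Limk2 (0.40, adjusted p = 0.0118) and Mical2 (0.27, adjusted p = 0.033) among them, and 1 lower (background 5.61%). Without any one sample, these counts ranged from 0 to 4 higher and from 0 to 1 lower. For HF against LF they ranged from 0 to 2 higher and 0 to 3 lower with both batches, and from 0 to 2 lower in batch 2. Of 12 genes of the ERK cascade, Rps6ka1 and Rps6ka3 downstream of ERK among them, none was called in either batch by edgeR, with 3 at an unadjusted p under 0.05 in each, all higher, against 12% and 16% of all genes higher by that rule. With both batches 1 of the 12, the Ras gene Hras, was called higher (0.26, SE 0.092, adjusted p = 0.036, background 9%). That count ranged from 0 to 1 without any one sample. Rps6ka1, a kinase downstream of ERK, differed by -0.12 (adjusted p = 0.0303), below the fold threshold.

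Acta1 is a muscle gene by name, so its values were set beside markers of muscle and of other cells. Among 12 skeletal and cardiac muscle markers, Actc1, the cardiac actin, was at 0 counts in 17 of 23 samples and Ckm, muscle creatine kinase, had at most 10 counts. The heavy chain genes Myh1 and Myh4 were at 0 in 22 samples each. The 12 markers together summed to 1.116 to 1.72 CPM in LF and 1.28 to 1.82 in HF of batch 1, and to 1.62 to 3.26 in LF and 1.65 to 1.67 in HF of batch 2, most of it from Mylpf (mean 0.838 CPM) and Myh7 (mean 0.519). Only these 2 passed the filter on low counts, and with both batches Mylpf, a myosin light chain gene, was called higher in HF than in LF (0.50, SE 0.178, adjusted p = 0.0401, background 9%), while Myh7, a cardiac and slow muscle myosin gene, differed by -0.54 (adjusted p = 0.0997). Acta1 averaged 26.1 ± 5.94 CPM (SD, n = 4) in LF of batch 1.

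Smooth muscle markers were low and uneven between samples. Mylk and Smtn, also expressed by other cells, averaged 106 and 15.4 CPM, and Mylk differed between HF and LF by -0.34 in batch 1 (adjusted p = 0.163) and -0.11 in batch 2 (adjusted p = 0.229). The other 8 markers, chosen after their values were seen, summed to 1.47, 4.16, 10.2 and 12.1 CPM in LF, 10.9, 10.15 and 0.563 in HF and 25.9, 53.7, 2.78 and 20.3 in HF-LF of batch 1. In batch 2 they summed to 21.4, 7.89, 32.7 and 6.32 CPM in LF, 4.92, 0.936 and 3.59 in HF and 16.9, 2.05, 2.31, 11.8 and 6.41 in HF-LF. These sums overlapped between HF and LF in batch 1 (means 7.22 and 6.98, exact permutation p = 0.971). They were lower in every HF than every LF sample in batch 2 (means 3.15 and 17.1, exact permutation p = 0.143). With 3 against 4 samples the smallest p of this permutation test is 0.0286, so neither value excludes a difference. Of the 10 smooth muscle markers, 1 was called lower in HF than in LF in batch 2 (background 4.4%), the enteric actin gene Actg2 (-3.02, SE 0.732, adjusted p = 0.035, with 3 to 8 counts in each HF sample), and 7 were lower at an unadjusted p under 0.05 (background 17.1%). In batch 1, where 9 of them were tested, 0 were called by edgeR, with 1 lower at an unadjusted p under 0.05 (background 10.2%). Myh11, the smooth muscle myosin heavy chain, differed by -0.06 and -2.48 (adjusted p = 0.971 and 0.0535) and Synm, an intermediate filament gene, by -0.56 and -2.05 (adjusted p = 0.69 and 0.0634). Actg2 averaged 0.638 CPM and Acta2, the smooth muscle alpha-actin gene, 1.23 CPM over all samples. The sample with the highest sum of its group was also the highest for Acta1 within HF-LF of batch 1 (sum 53.7 CPM, Acta1 22.4 CPM), HF of batch 2 (4.92 and 18.1 CPM) and HF-LF of batch 2 (16.9 and 35.02 CPM). It was the lowest for Acta1 within LF of batch 2 (32.7 and 29.9 CPM) and HF of batch 1 (10.9 and 8.54 CPM), and neither within LF of batch 1 (12.1 and 22.2 CPM). The part of smooth muscle cells in the Acta1 differences was not tested in either batch.

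**Figure D4:**
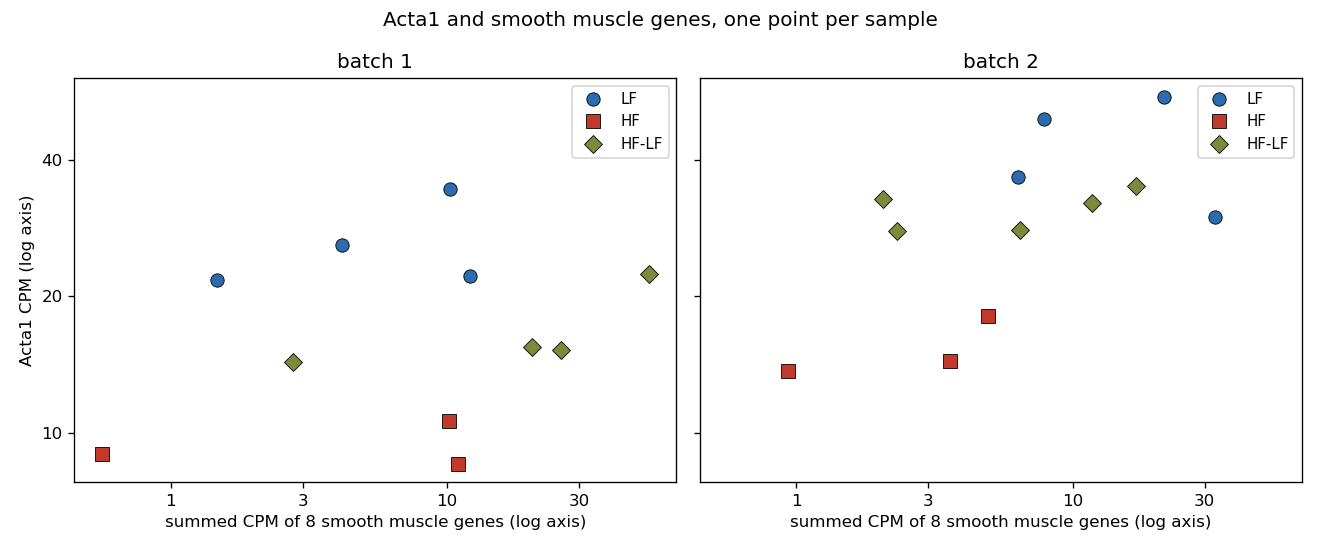
Acta1 in CPM (vertical axis, log scale) against the summed CPM of 8 smooth muscle markers (horizontal axis, log scale) for each sample, by batch. HF samples (red squares) lie between 8.54 and 18.1 CPM of Acta1. In batch 1 the HF sums (0.563 to 10.9 CPM) span nearly the range of the LF sums (1.47 to 12.1 CPM). In batch 2 the HF sums (0.936 to 4.92 CPM) lie below all LF sums (6.32 to 32.7 CPM).

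Of 8 fibroblast markers, none was called in either batch by edgeR, with 0 and 3 lower at an unadjusted p under 0.05 (background 10.2% and 17.1%), and their sums were 33.1 to 50.3 CPM in LF and 12.98 to 50.6 in HF of batch 1, and 26.8 to 51.8 and 18.8 to 36.9 in batch 2. With both batches, 1 of the 8, the receptor gene Pdgfra, was called lower (-1.20, SE 0.441, adjusted p = 0.0445), where 9.11% of all genes were. The collagen genes Col1a1, Col1a2 and Col3a1 differed by -1.0, -0.63 and -0.72 (adjusted p = 0.126, 0.31 and 0.256) and Pdgfrb by -0.14. Endothelial sums were 13.7 to 18.9 CPM in LF and 7.21 to 14.5 in HF of batch 1, and 12.8 to 19.9 and 12.5 to 14.4 in batch 2. With both batches 1 of 4 tested endothelial markers, Vwf, which encodes von Willebrand factor, was called lower (-0.49, SE 0.112, adjusted p = 0.00628, background 9.11%), while Pecam1 differed by -0.34 (adjusted p = 0.214). Between HF-LF and HF in batch 2, 2 of 3 tested endothelial markers, Vwf (0.44, adjusted p = 0.0366) and Tek (0.69, adjusted p = 0.0374), and 1 of 6 tested leukocyte markers, the T cell gene Cd3e (0.94, adjusted p = 0.0422), were called higher, where 8.89% of all genes were. The endothelial markers Cdh5 and Emcn were at 0 in 4 and 13 samples. Leukocyte sums were 24.5 to 32.3 CPM in LF and 22.2 to 27.8 in HF of batch 1, and 17.9 to 23.3 and 17.8 to 20.8 in batch 2, with Ptprc (CD45) at a difference of 0.003 and Cd68 at -0.61 (adjusted p = 0.0555) with both batches. None of the 12 epithelial markers was called in the fit of both batches by edgeR, and the largest differences by p were Krt20 (0.27, adjusted p = 0.0738), Epcam (0.16, adjusted p = 0.0983), Krt19 (0.16, adjusted p = 0.128) and the mucin gene Muc2 (-0.31, adjusted p = 0.154). In batch 2 alone none was called by edgeR, with 2 higher and 1 lower at an unadjusted p under 0.05 (background 16% and 17.1%). Muc2 averaged 21970 ± 3630 CPM (SD, n = 4) in LF and 14870 ± 2570 (n = 3) in HF there. Epithelial sums were 27126 to 36687 CPM in LF and 30857 to 33703 in HF of batch 1. Those of batch 2 were 35542 to 43467 and 31940 to 35636. In bulk samples such as these, fewer cells of a type and less RNA per cell cannot be told apart, and the part of these cell types in the differences of Srf and Acta1 was not tested.

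Across samples, among the genes whose levels ran most like those of Srf were Sema3b (Pearson r = 0.964), Brd2 (0.948), Grasp (0.944) and Nr4a2 (0.936), over 23 samples and 14179 genes after centring log2 CPM within each batch. For Acta1 they were Grasp (0.927), Thbs1 (0.926), Srf (0.922), Plk2 (0.922) and Plk3 (0.905). Acta1 stood at position 16 in the list of Srf. Of the other genes followed here, Mkl1 ran with Srf at r = 0.817, Elk1 at 0.691 and Elk3 at 0.566, Elk4 and Mkl2 at 0.402 and 0.405, Vcl at -0.034, Actg1 at -0.419 and Actb at -0.579. These correlations describe the samples, whose diets and library depths differ, and are given with no test.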

How the data were processed

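Colonic epithelium, released with EDTA, was sequenced after ribosomal RNA depletion in 23 libraries. The authors deposited raw counts per gene for each library; the submitters' processing notes name cutadapt 1.2.1, STAR 2.5 and featureCounts 1.5.0-p1 on mm10. Strand and multi-mapping settings are not given in the sources used here. Libraries were grouped by diet and batch from the labels. The counts were tested with edgeR 4.0.16 (R 4.3.3), using TMM factors, filterByExpr and the quasi-likelihood test on the 3 diets of a batch together, or on both batches with batch as a covariate. Alternatives were DESeq2 1.42.0, limma 3.58.1 voom with sample weights, other scaling and filters, and leaving out samples. The tests were checked on simulated data. Nothing says that all samples came from separate mice, so p-values can measure partly technical spread. Named genes were all 10 members and, per list, the 4 genes of lowest unadjusted p between HF and LF over both batches plus, for markers, the 2 of highest mean CPM. For Srf and Acta1 they were also the genes of highest correlation. Some genes this rule names are not reported here. The members and lists were chosen with earlier results of these data known.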

Additional observations from a re-analysis of the deposited data

Results flagged for a closer look

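In 4 of the 40 groups of 4 or 5 samples examined over the 10 genes, 1 sample stood far from the rest of its group, where chance alone flags about 1 in 20 groups. Acta1 stood at 22.4 CPM in HF-LF sample 2 of batch 1, against 14.3 to 15.4 CPM in the other samples of that group. Elk3 stood at 2.17 CPM in HF-LF sample 1 of batch 2, against 1.41 to 1.60 CPM in the others. Actb stood at 4260 CPM in LF sample 4 of batch 2, against 3764 to 3835 CPM in the others, and Vcl at 110 CPM in LF sample 1 of batch 1, against 135 to 139 CPM in the others.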

How the results depend on the processing

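For HF against LF in batch 1, where 0 of the 10 genes were called, DESeq2 and the fit with a replicate block each called 2 (Acta1 and Srf), limma voom called 3, other size factors and no low-count filter each called 1, and leaving out single samples gave 0 to 3. For HF against LF in batch 2 (2 called) leaving out single samples gave 1 to 3. For HF-LF against HF, the 0 of batch 1 became 1 under DESeq2, and the 5 of batch 2 ranged from 0 to 6 without single samples. For HF-LF against LF with both batches, the 0 became 1 under DESeq2. Leaving out single samples of the fit with both batches, chosen after seeing the data, kept 2 to 3 genes called between HF and LF and 2 to 3 between HF-LF and HF. The replicate numbers pair samples by name only: same-numbered samples of a batch deviated together with r between -0.39 and 0.407, over 0.1 in 8 of 20 pairs, and same-numbered samples of a diet in 4 of 11. The replicate block called 92 genes of the whole table in HF against LF of batch 1, where the fit without it called 0. In batch 2 it called 2080 against 1069, and in that fit Elk4 also passed (-0.28, adjusted p = 0.0458). Over all genes, HF against LF in batch 2 called 15 to 2560 without single samples, and DESeq2 called 1856 and limma voom 1991. In batch 1, DESeq2 called 478 and limma voom 2422. The 21 differences called in any fit kept their sign in all of them. Among the 69 never called, the sign changed in 74 of 1057 alternatives, with values between -0.15 and 0.13. No other scaling, tool or filter moved the median of all genes by 0.1 on the log2 scale. Depth was lowest for Elk3, with 38 to 99 reads per sample. Alternatives with no effect on a call are not listed.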
